A study of Homo sapiens with 8 samples.

Results

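The heat shock chaperones described here are 10 genes, HSPA6, HSPA1A, HSPA1B, HSPA8, DNAJB1, HSPH1, HSP90AA1, BAG3, HSPB1 and HSPD1, out of 17076 genes listed in an RNA-seq study of UPF1. They were chosen by their symbols, with earlier results of these data known. UPF1 is an RNA helicase needed for nonsense-mediated mRNA decay. The 4 groups had 2 libraries each of Huh7, an established human liver cancer line, and the sources used here name no time point. Cells received a scrambled siRNA (siControl), UPF1 siRNA (siUPF1), a vector with the MYC tag alone (MYC) or a vector for MYC-tagged UPF1 (MYC-UPF1). No group was left without transfection, so both controls had been through it too. The labels do not say whether the 2 libraries of a group came from separate cultures, so the p-values measure the spread between these libraries, which may be technical. The authors deposited FPKM, the read number scaled to transcript length and library size, so levels may be set side by side between genes. All 10 genes had a value above 0 in all 8 libraries.

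Heat shock chaperones hold unfolded proteins and help them to refold. Hsp70 proteins bind exposed hydrophobic stretches in a cycle of ATP hydrolysis, J-domain proteins such as DNAJB1 bring them their clients, and HSPH1 and BAG3 act as nucleotide exchange factors. When unfolded proteins accumulate, the transcription factor HSF1 forms trimers and binds inverted repeats of nGAAn upstream of these genes. HSPA8 is the constitutive Hsp70, while HSPA1A and HSPA1B are strongly induced by heat. HSPA6 is known for very low levels in unstressed cells and for induction under severe stress.

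The upstream sequences of HSPA6, HSPA1A and HSP90AA1 are shown because they hold the binding repeat of HSF1 in different arrangements. The sequences are from RefSeq (table built on GRCh38.p14, in which all 10 genes were matched, with 14 start sites), and each was placed by a single exact match on GRCh37, the assembly also called hg19. Each line gives, 5′ to 3′ on the strand of the gene, the 150 bases that end next to the start site, with every GAANNTTC or TTCNNGAA in capitals. The windows are chr1:161494180-161494329 on the plus strand for HSPA6, chr6:31783170-31783319 on the plus strand for HSPA1A and chr14:102553382-102553531 on the minus strand for the inner start of HSP90AA1, and no annotated exon overlaps them.
HSPA6: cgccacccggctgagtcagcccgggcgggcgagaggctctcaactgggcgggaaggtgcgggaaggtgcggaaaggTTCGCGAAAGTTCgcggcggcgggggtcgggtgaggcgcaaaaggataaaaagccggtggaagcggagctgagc
HSPA1A: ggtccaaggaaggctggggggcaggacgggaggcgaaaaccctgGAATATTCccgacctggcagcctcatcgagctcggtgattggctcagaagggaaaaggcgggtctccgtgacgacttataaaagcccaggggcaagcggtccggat
HSP90AA1: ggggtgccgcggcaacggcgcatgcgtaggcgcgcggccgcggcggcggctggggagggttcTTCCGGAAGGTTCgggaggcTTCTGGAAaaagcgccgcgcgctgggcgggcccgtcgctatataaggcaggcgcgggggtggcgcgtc

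In HSPA6 the capitals were 2 overlapping pairs, TTCGCGAA and GAAAGTTC, which together form a triplet between 62 and 74 bases upstream of the start. A further pair of HSPA6 lay beyond this window, 173 to 180 bases upstream. HSPA1A held 1 pair, 99 to 106 bases upstream. HSP90AA1 held a triplet and a separate pair. A pair, on either strand, was found in the 250 bases upstream of a start site for 8 of the 10 genes. Counted by start site this was 8 of 14, and 11.6% of 35116 promoters held one. HSPH1 and BAG3 had none in this window. A triplet, GAANNTTCNNGAA or its reverse complement, was found for 4 of the genes, HSPA6, HSPA8, HSP90AA1 and HSPD1, or 4 of 14 start sites, and in 0.441% of all promoters. A triplet holds 2 overlapping pairs, so both counts share these sites. A match is a string of letters, and binding was not measured here.

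As a check of the labels, the mean level of UPF1 fell from 45.9 ± 2.06 FPKM in siControl to 21.3 ± 0.839 FPKM in siUPF1 and rose from 51.3 ± 8.65 FPKM in MYC to 2659 ± 248 FPKM in MYC-UPF1 (SD, n = 2). All 9 hepatocyte markers were listed, with ALB between 6550 and 8371 FPKM. Of 8 markers of other cell types 5 were not listed, among them PTPRC, and the other 3 summed to between 3.84 and 4.89 FPKM in every library. The summed FPKM of all genes ranged from 403902 to 455592. MYC replicate 1 correlated with MYC-UPF1 replicate 2 at 0.997 across genes on the log2(FPKM + 1) scale, above its 0.9945 with MYC replicate 2, and MYC replicate 2 with MYC-UPF1 replicate 1 at 0.9964. Likewise siUPF1 replicate 1 correlated with the siControl libraries at 0.9924 and 0.9934, above its 0.9916 with siUPF1 replicate 2. Calls that changed without single libraries are therefore named.

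The chaperones stood at very different levels. HSPA8 had the highest level, between 665 and 807 FPKM, followed by HSPD1, the Hsp60 of the mitochondrial matrix, and HSP90AA1, the stress-inducible cytosolic Hsp90. The ranges of HSPD1 and HSP90AA1 over the 8 libraries overlapped. Within single libraries HSPD1 was above HSP90AA1 in all but siUPF1 replicate 2, where it was at 519 FPKM against 525 FPKM. These 3 genes held between 83.0% and 87.3% of the summed FPKM of the 10. HSPB1, a small heat shock protein, came next at 124 to 152 FPKM. DNAJB1, HSPA1A and HSPA1B had overlapping ranges between 31.7 and 54.9 FPKM, with DNAJB1 above HSPA1A and HSPA1B in every library. HSPH1, the Hsp110 protein, lay at 23.2 to 32.0 FPKM and BAG3 at 10.1 to 13.1 FPKM. HSPA6 was the lowest in every library, and HSPA8 exceeded it 706-fold to 8825-fold. Between the highest and the lowest of the 8 libraries, HSPA6 varied 12.7-fold, while the other 9 genes varied from 1.18-fold (DNAJB1) to 1.62-fold (HSPA1A).

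**Figure D1:**
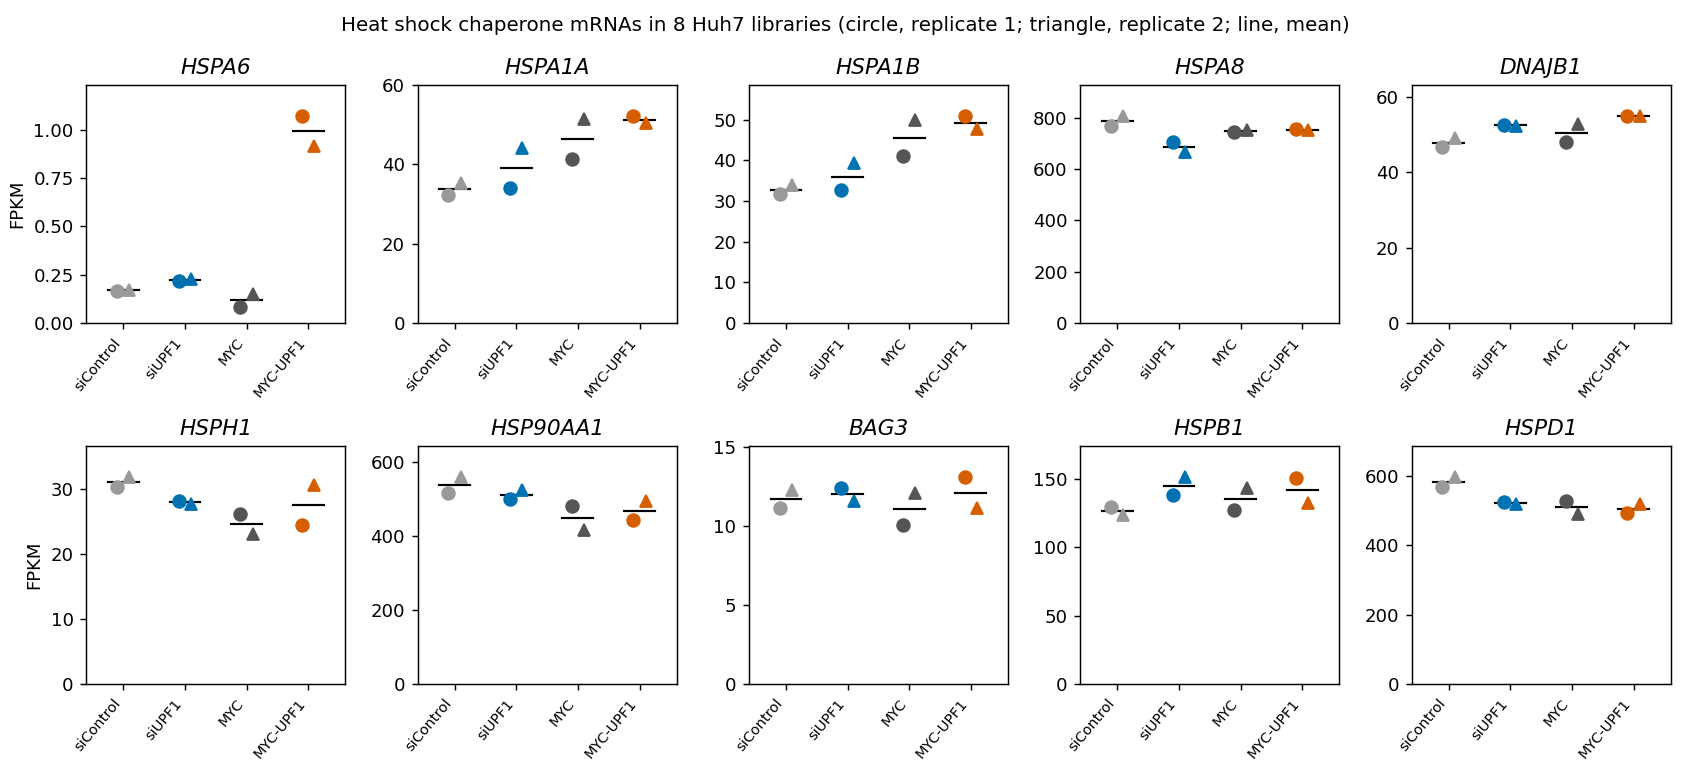
FPKM of each heat shock chaperone (vertical axis from 0, a scale of its own for each gene) in the 4 groups, with circles for replicate 1, triangles for replicate 2 and a line for the mean of 2 libraries. HSPA6 is at 1.07 and 0.915 FPKM in MYC-UPF1 and at or below 0.225 FPKM elsewhere. HSPA1A and HSPA1B have their highest means in the plasmid groups. The remaining genes vary from 1.18-fold (DNAJB1) to 1.38-fold (HSPH1) over the 8 libraries.

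HSPA6 is a gene with a single exon on chromosome 1 (GRCh37, 161494330 to 161496684, plus strand). Its level was 0.168 and 0.169 FPKM in siControl, 0.219 and 0.225 FPKM in siUPF1, 0.0845 and 0.152 FPKM in MYC, and 1.07 and 0.915 FPKM in MYC-UPF1. The MYC-UPF1 libraries were far above all others, and no pair of groups overlapped. The means were 0.169 ± 0.000864, 0.222 ± 0.00439, 0.118 ± 0.0474 and 0.992 ± 0.110 FPKM (SD, n = 2). The genes appear to have been listed for the level of HSPA6 in MYC-UPF1, so this difference is a description with no test. The mean was 8.41-fold that of MYC, with a range of 6.04 to 12.7 over the pairs of single libraries, and on the log2(FPKM + 1) scale it was 0.83 higher (SE 0.10). This scale understates the change of so low a gene, and with a pseudocount of 0.1 the difference was 2.34. Among the 13251 genes tested, HSPA6 ranked 8 from the top by log2 fold change and 4 by fold of mean FPKM. It met the minimum of 0.5 mean FPKM only through the MYC-UPF1 libraries, so as a gene that passed it had to differ.

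Even in MYC-UPF1, HSPA6 remained a weakly expressed gene. Of all listed genes, 31.1% and 28.9% were at or below it in the 2 MYC-UPF1 libraries, against 7.33% to 12.7% in the other 6. In siUPF1 the mean level of HSPA6 was 1.32-fold that of siControl, and the groups did not overlap. It was under the minimum there, and a limma fit with no minimum gave a log2 fold change of 0.064 (SE 0.037, adjusted p = 0.404). In MYC the level was 0.698-fold that of siControl, with a log2 fold change of -0.065 in the fit with no minimum (SE 0.044, adjusted p = 0.354). Neither difference passed the threshold. FPKM gives no read number, so the counting error of a gene at this level is unknown.

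HSPA7, a pseudogene on the same chromosome from 161576081 to 161578007, carries nearly the same sequence. The transcripts were 98.2% identical over 1933 aligned columns, so reads of one gene may be counted for the other. HSPA7 stood at 0.0157 and 0.0153 FPKM in MYC and at 0.102 and 0.106 FPKM in MYC-UPF1, a 6.70-fold higher mean with no overlap. The level of HSPA6 was 5.37 to 10.5 times that of HSPA7 over the 8 libraries. The files do not tell whether both loci or 1 of them gave the reads. The mRNA of HSPA6 is less alike to the other Hsp70 mRNAs, at 81.0% identity to HSPA1A and 73.0% to HSPA8.

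**Figure D2:**
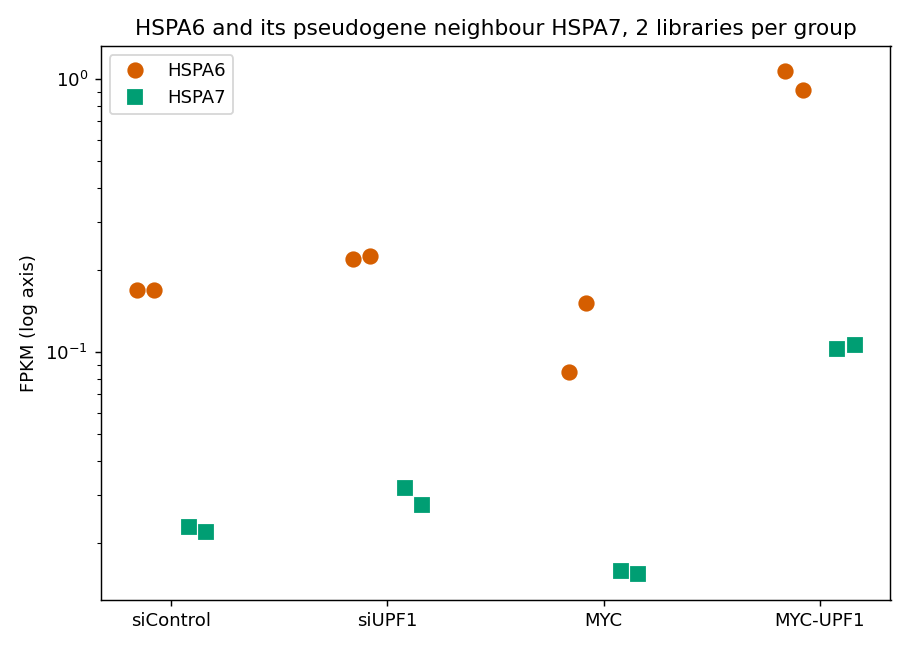
FPKM of HSPA6 (circles) and HSPA7 (squares) on a log axis, with 2 libraries for each group on the horizontal axis. Both stand highest in the MYC-UPF1 libraries, and HSPA6 lies above HSPA7 in every library.

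The inducible Hsp70 genes HSPA1A and HSPA1B were compared next. They lie side by side on chromosome 6, from 31783320 to 31785723 and from 31795515 to 31798031, with 1 exon each. HSPA1A was at 32.3 and 35.4 FPKM in siControl, 34.1 and 44.01 FPKM in siUPF1, 41.4 and 51.5 FPKM in MYC, and 52.2 and 50.4 FPKM in MYC-UPF1. HSPA1B was at 31.7 and 33.9 FPKM in siControl, 32.6 and 39.4 FPKM in siUPF1, 41.2 and 49.9 FPKM in MYC, and 50.9 and 47.6 FPKM in MYC-UPF1. For both genes each treated group overlapped its own control, and both plasmid groups lay above both siControl libraries. The transcripts were 96.0% identical over 2300 aligned columns and the ratio of HSPA1A to HSPA1B stayed between 1.004 and 1.118. The split of reads between them is therefore uncertain and they do not count as separate observations. Counts and correlations over the chaperones given below hold both genes. The mean of HSPA1A in MYC-UPF1 was 1.10-fold that of MYC, beside 8.41-fold for HSPA6.

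HSPA8, on chromosome 11 from 122928197 to 122933938, was at 768 and 807 FPKM in siControl and at 707 and 665 FPKM in siUPF1. Both siUPF1 libraries were lower than both controls. In MYC it was at 745 and 753 FPKM and in MYC-UPF1 at 756 and 751 FPKM, and these groups overlapped.

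Of the partners of Hsp70, DNAJB1 (chromosome 19, 14625581 to 14671203) stimulates its ATPase. It was at 46.6 and 49.0 FPKM in siControl, 52.6 and 52.3 FPKM in siUPF1, 48.0 and 52.8 FPKM in MYC, and 54.8 and 54.9 FPKM in MYC-UPF1. Both treated groups lay above their own control without overlap, by 1.10-fold and 1.09-fold in the means. HSPH1 (chromosome 13, 31709110 to 31736525) was at 30.4 and 32.0 FPKM in siControl, 28.3 and 27.8 FPKM in siUPF1, 26.2 and 23.2 FPKM in MYC, and 24.6 and 30.7 FPKM in MYC-UPF1. It was lower in siUPF1 and in MYC than in siControl, and the MYC and MYC-UPF1 libraries overlapped. BAG3 (chromosome 10, 121410892 to 121437331), which links Hsp70 to selective autophagy, overlapped in every comparison, with group means between 11.1 and 12.1 FPKM.

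Of the other chaperones, HSP90AA1 (chromosome 14, 102547079 to 102606036) was at 518 and 561 FPKM in siControl, 500.5 and 525 FPKM in siUPF1, 482 and 418 FPKM in MYC, and 443 and 496 FPKM in MYC-UPF1. The MYC libraries were below siControl, and each treated group overlapped its own control. HSPB1 (chromosome 7, 75931990 to 75933612) was at 130 and 124 FPKM in siControl and at 138 and 152 FPKM in siUPF1, higher without overlap, and at 127, 143, 151 and 133 FPKM in the plasmid libraries. HSPD1 (chromosome 2, 198351308 to 198381461) was at 568 and 597 FPKM in siControl, 525 and 519 FPKM in siUPF1, 528 and 491 FPKM in MYC, and 492 and 518 FPKM in MYC-UPF1. The siControl libraries were the highest of the 8.

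The comparison of MYC-UPF1 with MYC asks which mRNAs differ when UPF1 is overexpressed. HSPA6 was the chaperone that differed most, and the other 9 lay between -0.012 (HSPD1) and 0.15 (HSPH1) on the log2 scale, against medians of 0.12 over the 10 and -0.014 over all genes tested. At an unadjusted limma p of 0.05, which is the threshold of the study, HSPA6 was the 1 of the 10 called, and 1.43% of all genes tested were. The call was made on the values the gene appears to have been chosen for, so nothing is read from it. At an adjusted p of 0.05 none of the 10 was called, and 0.00755% of all genes were, which is UPF1 alone. At this threshold the call of HSPA6 depended on the setting. Fits without 1 library and a block added after the data were seen are left aside here. Among the rest, the call was made with the replicate block, with a pseudocount of 0.1 and with all 8 libraries in a single fit. It was not made with no minimum, quantile normalization, the GC and length trend removed or no mean-variance trend. These calls use the same values, so nothing is read from them either. With 1 library left out, the log2 fold change of HSPA6 lay between 0.78 and 0.89. The groups did not overlap for 2 of the 10, HSPA6 and DNAJB1, and for 20.7% of all genes. The list was put together around this contrast, so these shares are descriptions. With the trend of each library with GC content and length removed, HSPA1A, HSPA1B and DNAJB1 also passed the unadjusted threshold, at log2 fold changes of 0.19, 0.16 and 0.16, beside 2.77% of all genes in that fit. Without MYC replicate 2, 3 of the 10 passed, among them HSPA1A at 0.30 and HSPA1B at 0.25, beside 1.66% of all genes, and without MYC replicate 1 those were at -0.00765 and -0.0185.

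The comparison of siUPF1 with siControl asks which mRNAs differ when UPF1 is depleted. None of the 9 chaperones that met the minimum passed the unadjusted limma threshold, beside 21.5% of all genes, and none passed the adjusted one, beside 0.0369%. HSPA8 came to a log2 fold change of -0.20 (SE 0.095, adjusted p = 0.271 in limma), HSPB1 to 0.19 (SE 0.096, adjusted p = 0.285) and HSPA1A to 0.19 (SE 0.13, adjusted p = 0.428). The groups did not overlap for 5 of the 9, with DNAJB1 and HSPB1 higher and HSPA8, HSPD1 and HSPH1 lower, beside 56% of all genes. HSPA8 passed the unadjusted threshold when all 8 libraries shared a fit, and HSPH1 with quantile normalization. Without siUPF1 replicate 1, 4 of the 9 passed, namely HSPA1A at 0.37, HSPA1B at 0.26, HSPB1 at 0.26 and HSPA8 at -0.24, beside 43.6% of all genes in that fit.

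The signs after depletion split by transcript GC content. The 5 tested chaperones with a positive log2 fold change, HSPA1A, HSPA1B, DNAJB1, BAG3 and HSPB1, had 56.3% to 65.5% GC. The 4 with a negative one, HSPA8, HSPH1, HSP90AA1 and HSPD1, had 39.6% to 45.7%. Over all genes the Spearman correlation of log2 fold change and GC content was 0.542 across 12833 genes, which are not independent and share the same 4 libraries. With the trend removed, the 9 lay between -0.14 (HSPA8) and 0.048 (HSPA1A), and HSPA1B and BAG3 turned to -0.00422 and -0.071. In the comparison of MYC-UPF1 with MYC the correlation over all genes was -0.432, while HSPA6, with 58.6% GC, was at 0.87 with the trend removed. Between the controls the correlation over all genes was 0.574, so a GC trend was not particular to depletion. Over the chaperones tested it was 0.833 after depletion, 0.224 after overexpression and 0.867 between the controls. These values hold both HSPA1A and HSPA1B, which are not separate observations. The part of GC content in these differences was not tested further.

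**Figure D3:**
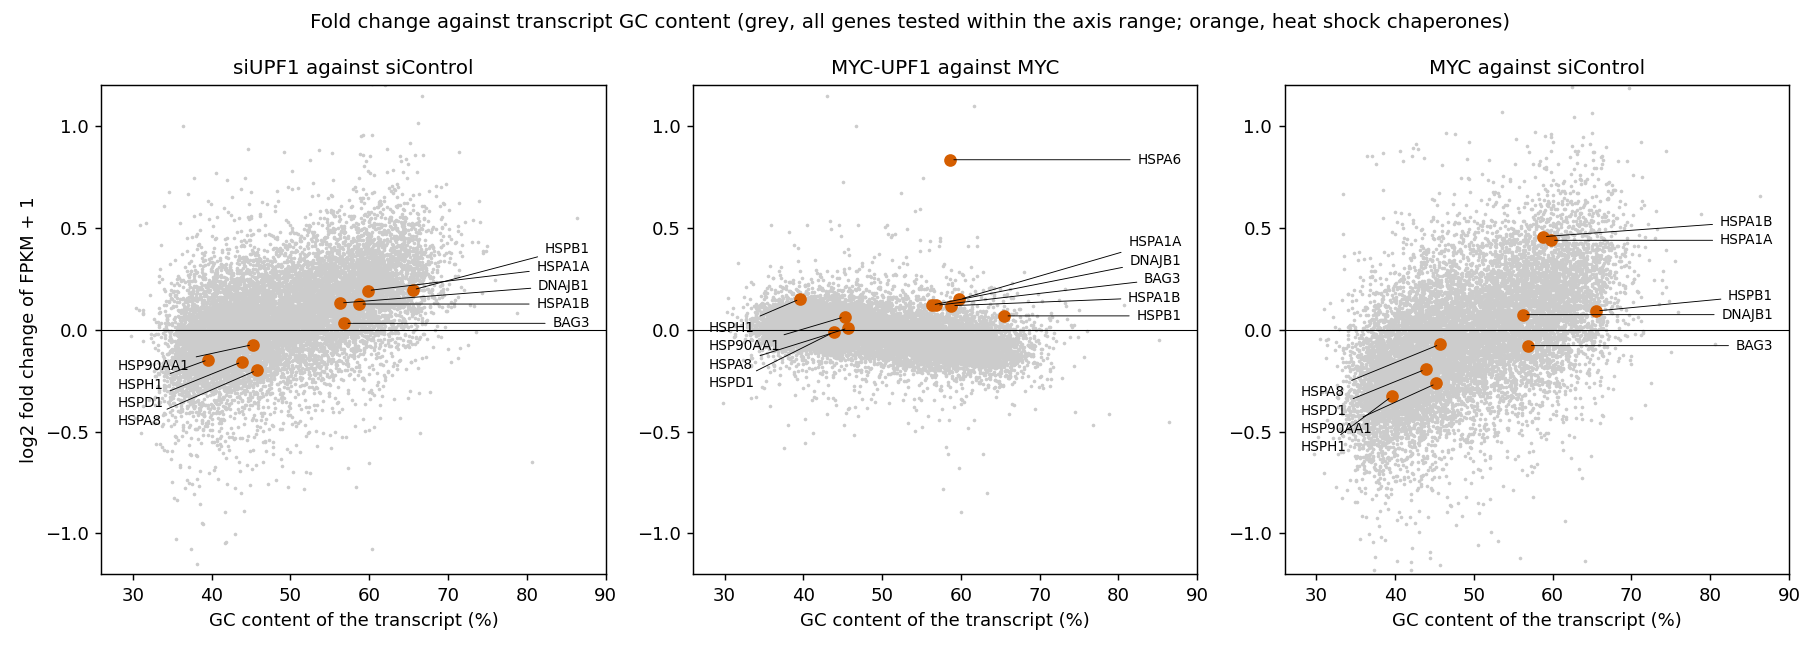
Log2 fold change of FPKM + 1 against the GC content of the transcript in percent, for siUPF1 against siControl, MYC-UPF1 against MYC and MYC against siControl, with all genes tested in grey and the heat shock chaperones in orange. After depletion the chaperones above 0 have 56.3% to 65.5% GC and those below 0 have 39.6% to 45.7%, and after overexpression HSPA6 stands apart at 0.83.

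A test of the difference between the depletion and the overexpression effect was run in a fit of all 8 libraries. None of the 9 chaperones that met the minimum passed the unadjusted limma threshold, beside 15.2% of all genes. The estimates ran from -0.30 for HSPH1 (SE 0.16, adjusted p = 0.399) to 0.13 for HSPB1 (SE 0.14, adjusted p = 0.668). HSPA6 was under the minimum there, and its estimate with no minimum was -0.77 (SE 0.074). That estimate contains the overexpression difference, so it is a description with no test.

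The largest differences of the inducible Hsp70 pair were between the controls. In MYC, HSPA1A was 0.44 higher than in siControl on the log2 scale (SE 0.11, adjusted p = 0.00556 in limma) and HSPA1B was 0.46 higher (SE 0.11, adjusted p = 0.00347). HSPH1 fell by 0.33 (SE 0.10, adjusted p = 0.0216) and HSP90AA1 by 0.26 (SE 0.081, adjusted p = 0.0187). HSPD1 fell by 0.19 (SE 0.073) past the unadjusted threshold alone, with an adjusted p of 0.0510. Of the 9 chaperones tested 2 rose and 3 fell. The 2 that rose were HSPA1A and HSPA1B, which do not count as separate observations. Beside them 40.9% of all genes were called, 15.4% higher and 25.6% lower (2052 and 3416 genes, against 2763 and 2709 with quantile normalization). By adjusted p, 4 of the 9 were called, beside 29.1% of all genes. The groups did not overlap for 6 of the 9, beside 66.9%. The controls differed in what was transfected, and any difference in day or batch cannot be told apart from it. This comparison shares siControl with the depletion and MYC with the overexpression comparison. Without siControl replicate 2 HSPH1, HSP90AA1 and HSPD1 lost the call, at -0.292, -0.207 and -0.159, and without MYC replicate 2 HSP90AA1 and HSPD1 lost it, at -0.16 and -0.14. With the GC and length trend removed, HSPA1A and HSPA1B were at 0.26 and 0.29 and still called, HSPD1 lost the call at -0.055 and BAG3 gained it at -0.21. HSPB1 gained the call with quantile normalization, at 0.15, and HSPD1 lost it in the fit with no mean-variance trend.

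**Figure D4:**
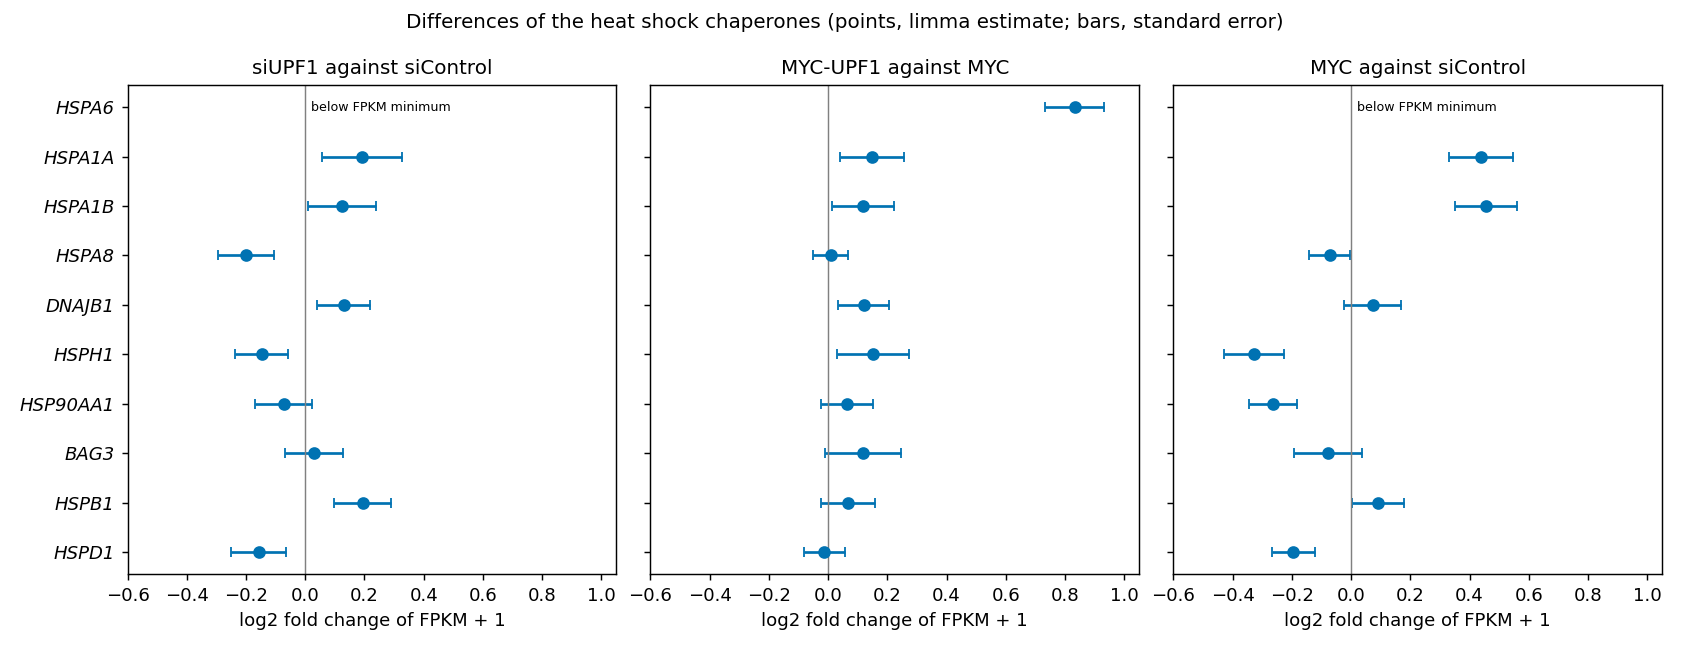
Log2 fold change of FPKM + 1 of each heat shock chaperone in 3 comparisons of 2 libraries with 2, where points are limma estimates and bars their standard errors. HSPA6 is at 0.83 in MYC-UPF1 against MYC, HSPA1A and HSPA1B are at 0.44 and 0.46 in MYC against siControl, and HSPA6 is under the FPKM minimum in the other comparisons.

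The wider chaperone and heat-induced genes were taken from 10 lists with 82 genes outside the 10, of which 79 were listed. After UPF1 overexpression 1 of 73 tested genes rose past the unadjusted limma threshold and none fell, 1.37% beside 1.43% of all genes. The riser was ATF3, a stress-induced transcription factor, at 3.02 and 3.76 FPKM in MYC and 4.94 and 5.48 FPKM in MYC-UPF1. Its log2 fold change was 0.50 (SE 0.13, adjusted p = 1). No gene of the other 9 lists was called. Among the heat shock factors and their regulators (HSF1, HSF2, HSF4 and HSBP1), log2 fold changes ran from -0.13 to 0.070. The 14 endoplasmic reticulum chaperones ran from -0.15 to 0.11. HSPA1L, an Hsp70 gene next to HSPA1A that was singled out after its values were seen, was at 0.564 and 0.536 FPKM in MYC and at 0.703 and 0.824 FPKM in MYC-UPF1. Its groups did not overlap. It did not pass the unadjusted threshold, though it did in the fit with no minimum, at a log2 fold change of 0.19 (SE 0.066, adjusted p = 1).

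After UPF1 depletion 9 of 74 tested genes of these lists rose and 6 fell past the unadjusted threshold, 20.3% beside 21.5% of all genes. Over all genes 16% were called higher and 5.51% lower, or 2162 and 746, against 1417 and 1408 with quantile normalization. No gene of the lists passed the adjusted threshold. ZFAND2A, a heat- and arsenite-induced partner of the proteasome, rose most, from 30.8 and 30.2 FPKM in siControl to 48.6 and 49.0 FPKM in siUPF1, at a log2 fold change of 0.66 (SE 0.088, adjusted p = 0.0584 in limma). HSPB8, the small heat shock protein that works with BAG3, rose by 0.42 (SE 0.092, adjusted p = 0.0911). The J-domain genes DNAJB2 and DNAJB5 rose by 0.50 and 0.41. The exchange factor BAG1 and the ubiquitin ligase STUB1 rose by 0.48 and 0.32. UNC45A, a myosin co-chaperone of Hsp90, rose by 0.45, HSF4 by 0.47 and HSPA2 by 0.30. Of the Hsp90 co-chaperones CHORDC1 and FKBP5 fell by 0.36 and 0.33. TCP1, of the cytosolic chaperonin, fell by 0.24 and the other 7 subunits were not called. HSPE1, the cofactor of HSPD1, fell by 0.30 and DNAJA3, the mitochondrial J-domain protein, by 0.22. MRPL18, a mitochondrial ribosomal protein with a heat-induced cytosolic form, fell by 0.33. None of the 14 endoplasmic reticulum chaperones was called. With the GC and length trend removed, CHORDC1, HSPE1, TCP1 and STUB1 lost the call, at -0.17, -0.11, -0.14 and 0.11. HSPE1 also lost it with no FPKM minimum and with quantile normalization, and DNAJA3 and TCP1 lost it with the replicate block. Without siControl replicate 1, FKBP5, DNAJA3, HSPE1, TCP1, DNAJB2, HSPA2 and STUB1 lost it, at -0.33, -0.24, -0.25, -0.29, 0.34, 0.21 and 0.34. Without siControl replicate 2, CHORDC1, FKBP5, DNAJA3, HSPE1, MRPL18, TCP1, DNAJB5 and STUB1 did, at -0.30, -0.33, -0.22, -0.34, -0.28, -0.20, 0.36 and 0.30. Without siUPF1 replicate 2, CHORDC1, HSPE1 and TCP1 did, at -0.21, -0.14 and -0.19. Of the 6 listed interferon-induced genes 3 met the minimum and CXCL10 fell by 0.76 (SE 0.21, adjusted p = 0.134 in limma). The mean of CXCL10 went from 1.79 FPKM in siControl to 0.699 FPKM in siUPF1, a change that the log2(FPKM + 1) scale understates.

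In MYC against siControl 6 of the 74 rose and 30 fell, 48.6% beside 40.9% of all genes. The median log2 fold change of the 74 was -0.14, beside -0.057 for all genes. The list of small heat shock proteins other than HSPB1 had 3 genes that met the minimum, and all were called lower. HSPB11 fell by 0.55, CRYAB by 0.52 and HSPB8 by 0.40. Whether each gene of the list belongs to that family was not examined. CRYAB met the minimum only through siControl, at a mean of 0.872 FPKM against 0.302 FPKM in MYC. As a gene that passed, CRYAB therefore had to be lower in MYC. Of the heat-induced genes HMOX1, the heme oxygenase, fell by 0.67 (SE 0.11, adjusted p = 0.000234 in limma), CACYBP by 0.41 and ATF3 by 0.37, while SERPINH1, the collagen chaperone, rose by 0.34. The Hsp90 co-chaperones PPID, PTGES3 and CHORDC1 fell by 0.47, 0.40 and 0.35. The chaperonin genes TCP1, CCT6A and CCT2 fell by 0.32, 0.30 and 0.25. DNAJB4, DNAJC7 and DNAJA1 fell by 0.34, 0.28 and 0.26. BAG2 fell by 0.56, HSPA4L by 0.27, HSPE1 by 0.23 and HSBP1, which binds heat shock factor trimers, by 0.24. HSPA4L also met the minimum only through siControl, at a mean of 0.724 FPKM against 0.428 FPKM in MYC. It too had to be lower in MYC, and both CRYAB and HSPA4L are among the 30 that fell. HSPA2 rose by 0.39 and STUB1 by 0.22. The endoplasmic reticulum genes went both ways, with HYOU1, SDF2L1 and PDIA4 higher by 0.44, 0.35 and 0.27 and DNAJB9, MANF and HSP90B1 lower by 0.48, 0.32 and 0.25. Of the interferon-induced genes CXCL10 fell by 1.11 and ISG15 by 0.33. CXCL10 met the minimum only through siControl, at a mean of 1.79 FPKM against 0.293 FPKM in MYC, so it had to be lower in MYC. With the GC and length trend removed, DNAJB4, HSPE1 and STUB1 turned to 0.022, 0.069 and -0.013. There TCP1, CCT2, CCT6A, CHORDC1, DNAJA1, HSP90B1, HSPA4L and SERPINH1 lost the call, at -0.14, -0.13, -0.13, -0.070, -0.048, -0.13, -0.14 and 0.13. HSBP1 lost it with quantile normalization, and HSP90B1 with no FPKM minimum and with all 8 libraries in a single fit. Without siControl replicate 2, CCT2, CHORDC1, DNAJA1, DNAJB4, DNAJC7, HSBP1, HSP90B1, HSPA4L, ISG15, MANF, ATF3 and STUB1 lost the call with no change of sign. Without siControl replicate 1, PDIA4, HSPA2, STUB1, HSPE1, HSBP1 and DNAJC7 lost it, at 0.18, 0.29, 0.24, -0.19, -0.26 and -0.29. Without MYC replicate 2, SDF2L1, STUB1, HSP90B1 and HSPA4L lost it, at 0.17, 0.15, -0.13 and -0.26, and without MYC replicate 1 HSPA4L did, at -0.28.

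**Figure D5:**
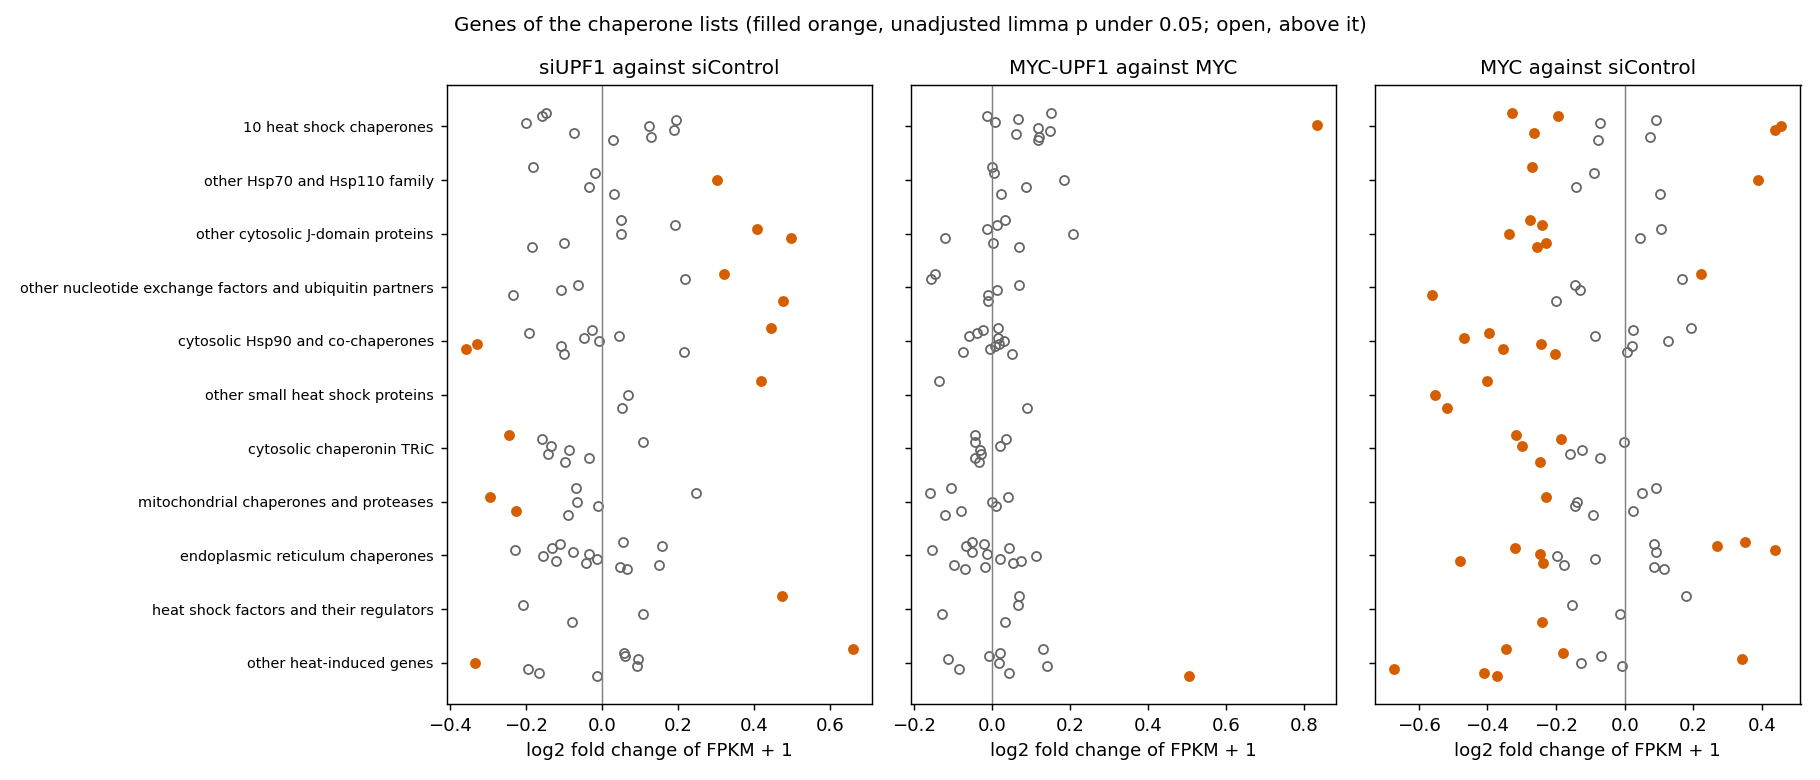
Log2 fold change of FPKM + 1 of every tested gene in 11 lists (rows) for 3 comparisons, with filled orange points for an unadjusted limma p under 0.05 and open points above it. In MYC-UPF1 against MYC the filled points are HSPA6 at 0.83 and ATF3 at 0.50.

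The genes nearest to HSPA6 over the 8 libraries were sought among 13412 genes with a mean of at least 0.5 FPKM. The measure was the root mean square difference of log2(FPKM + 1) deviations from the mean of each gene. HSPA6 itself averaged 0.375 FPKM over the 8 libraries, and the minimum left out HSPA7 at 0.0429 FPKM. This scale understates the change of HSPA6, so a gene near it need not share its fold. The nearest was AXIN2, a scaffold of the WNT pathway, at a difference of 0.137. AXIN2 was at 1.28 and 1.46 FPKM in siControl and at 1.505 and 1.67 FPKM in siUPF1. It was at 1.61 and 1.86 FPKM in MYC and at 2.81 and 2.89 FPKM in MYC-UPF1. The MYC libraries thus lay above siControl for AXIN2, whereas for HSPA6 they lay below. The next 4 were entries of small non-coding RNAs or their pseudogenes, SNORA5B at 0.188, MIR6728 at 0.194, RN7SL608P at 0.197 and TRL-AAG3-1 at 0.199. No other heat shock chaperone was among the 5. The search used the MYC-UPF1 values for which HSPA6 appears to have been chosen, so it is a description and nothing is read from it.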

How the data were processed

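RNA was isolated from Huh7 cells and made into stranded mRNA libraries, 2 for each of 4 groups. The submitters' processing notes name FastQC 0.11.7, Trimmomatic 0.38, HISAT2 2.1.0 and StringTie 1.3.4d, and the authors aligned to hg19 with NCBI annotation and deposited FPKM per gene and library. Values in the whole-series and single-library files differed in 0 of 136608 cases. Low values gave no steps of whole reads, with the commonest ratio between libraries in 0.113% of 4419 low genes, so depth and counting error are unknown and no count model was used. Whether reads were counted by strand is not given in the sources used here.

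The 10 chaperones and the gene lists were chosen with earlier results of these data known. Groups followed the labels. Each comparison of 2 libraries with 2 was fitted in limma 3.58.1 (R 4.3.3, lmFit, eBayes with trend) on log2(FPKM + 1), where the 4 libraries averaged 0.5 FPKM or more. A call is a two-sided p under 0.05, unadjusted as in the study, beside Benjamini-Hochberg adjusted values over all genes tested. An exact permutation test of 2 against 2 cannot go below p = 0.333. The scripts were tested on simulated data. The genes named are the 10, from each list up to 3 per direction past the threshold without overlap, the 5 nearest to HSPA6, and UPF1. GC content, length and positions came from GENCODE 44 on GRCh37, with a value for 15741 genes. Alternatives were a pseudocount of 0.1, no minimum, a minimum of 5, quantile normalization, removal of the GC and length trend (loess, span 0.5), the replicate number as a block, no trend, a fit of all 8 libraries, and leaving out each library. Figures were drawn in matplotlib 3.10.9, and tables were read in Python 3.11.15 (pandas 2.3.3).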

Additional observations from a re-analysis of the deposited data

How the results depend on the processing

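Depth is unknown, and with 2 libraries per group the calls rest on the variance limma shares across genes. After depletion, 2162 genes were called higher and 746 lower, and with quantile normalization 1417 and 1408. Adjusted calls over all genes were 5, and became 0 with no FPKM minimum and with quantile normalization, 316 at a mean FPKM of at least 5, 417 with the GC and length trend removed, 368 with all 8 libraries in a single fit and 115 to 4539 with 1 library left out. Unadjusted calls were 2908, 1862 at a mean FPKM of at least 5 and 1435 to 5896 with 1 library left out. Of the chaperones 0 were called, 1 with quantile normalization, 1 with all 8 libraries and 0 to 4 with 1 library left out. HSPA1B turned to -0.00422 and BAG3 to -0.071 after removal of the GC and length trend, and BAG3 to -0.027 with quantile normalization. With 1 library left out HSPA1B lay between -0.00567 and 0.256 and BAG3 between -0.0325 and 0.094.

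After overexpression, adjusted calls were 1, then 2 with a pseudocount of 0.1 and with all 8 libraries, and 5 to 66 with 1 library left out. Unadjusted calls were 189, then 409 with no FPKM minimum, 49 at a mean FPKM of at least 5, 349 after removal of the GC and length trend and 220 to 778 with 1 library left out. Of the chaperones 1 was called, 0 at a mean FPKM of at least 5, where HSPA6 is not tested, 4 after removal of that trend and 1 to 3 with 1 library left out. HSPA8 turned to -0.022 with that trend removed and HSPD1 to 0.0027 with quantile normalization. With 1 library left out the log2 fold changes lay between -0.00765 and 0.303 for HSPA1A, -0.0185 and 0.253 for HSPA1B, -0.00472 and 0.306 for HSPH1, -0.0411 and 0.167 for HSP90AA1, -0.00379 and 0.242 for BAG3, -0.0246 and 0.159 for HSPB1 and -0.0647 and 0.0399 for HSPD1.

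Between the controls, adjusted calls were 3883, then 1310 with no FPKM minimum, 2390 with all 8 libraries and 1237 to 5792 with 1 library left out. Unadjusted calls were 5468, 3514 at a mean FPKM of at least 5 and 3139 to 6808 with 1 library left out. Of the chaperones 5 were called, 6 with quantile normalization, 4 with no mean-variance trend and 2 to 5 with 1 library left out. With the GC and length trend removed HSPA8 turned to 0.041, DNAJB1 to -0.13, HSPB1 to -0.0667, DNAJB4 to 0.022, HSPE1 to 0.069 and STUB1 to -0.013. BAG3 lay between -0.201 and 0.044 with 1 library left out. The cause of these changes was not tested.

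Replicate numbers are shared by all groups, yet deviations of same-numbered libraries correlated at -0.129 after depletion, -0.569 after overexpression and 0.00999 between the controls, so the numbers were not taken to pair the libraries. With the replicate block, adjusted calls were 0 after depletion and 20 after overexpression. With crossed numbers as a block, added after the data were seen, adjusted calls were 90 after depletion and 32 after overexpression. Unadjusted calls after overexpression were then 1227, or 9.26% of all genes, and 4 chaperones were called, HSPA6 among them. The block was chosen on the same values, so nothing is read from these calls.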
